A study of Canis lupus familiaris with 6 samples.

Results

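Keratins are the intermediate filament proteins of epithelial cells. Every keratin filament is built from pairs of a type I and a type II chain, so epithelial cells make them in matched sets, and most type I genes lie together on dog chromosome 9, while the type II genes and the type I gene of keratin 18 lie on chromosome 27. In the mammary gland luminal cells carry simple keratins such as keratins 7, 8, 18 and 19, basal and myoepithelial cells carry keratins 5, 14 and 17, and the keratins of hair and its root sheath belong to skin appendages. Keratin sets are used to classify mammary tumors, and their loss accompanies a shift to a mesenchymal cell form.

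The keratin genes were the array probes whose gene symbol is KRT with a number and at most 1 letter from A to C. There were 48 such probes with 38 symbols among 43603 probes and 35581 names on the array, and all of them are accounted for here. The RNA came from 3 canine mammary tumor cell lines, which were P114 (an anaplastic cancer), CMT-U27 (a simple carcinoma) and CMT-U309 (a spindle cell tumor). Each line was grown as monoculture, or as co-culture with MDSCs (myeloid-derived suppressor cells sorted from dog blood) held in plate inserts. The co-culture lasted at least 72 h per the labels, and the methods give a shorter time. Co-culture and monoculture RNA of a line were hybridised together on 2 arrays with the dyes exchanged, so that the 6 arrays held 6 RNAs, each read in 2 channels. Each line lay on a slide of its own, so line and slide cannot be told apart, whereas co-culture and monoculture shared every array. Each group is 1 cell line, and nothing in the labels says that cultures were repeated.

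Levels are given as the log2 scaled signal of an RNA, averaged over its 2 dyes. A probe was read between lines only, never against another probe. A spot is called well above background where the scanner software flags it so, which held for 53.0% to 81.0% of spots per channel. Line differences were tested with limma over 42728 probes (46 of the keratin probes, 36 symbols), and a probe was called at a Benjamini-Hochberg adjusted p under 0.05 with a fold over 2. The p-values of line differences rest on how far the difference between co-culture and monoculture RNA varied from line to line, which may be technical. They hold no spread between repeated cultures or slides, so they do not measure whether a line difference would repeat. In such bulk RNA, fewer cells expressing a gene and less RNA per cell cannot be told apart.

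The keratin probes were at or near background more often than not. Of the 48 probes, all 4 channels were well above background for 17 with P114, for 19 with CMT-U27 and for 7 with CMT-U309, and 10 probes were so in no channel of any line. Of all array probes the shares were 54.1%, 56.3% and 52.7%. The 21 keratin probes that were well above background in all 4 channels of a line carried 13 symbols. The other 27 probes, with 25 further symbols, had line means between 1.65 and 5.94. Symbols of several central mammary keratins (KRT5, KRT7, KRT8 and KRT18) were on no probe, but a gene can be read without its symbol.

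**Figure D1:**
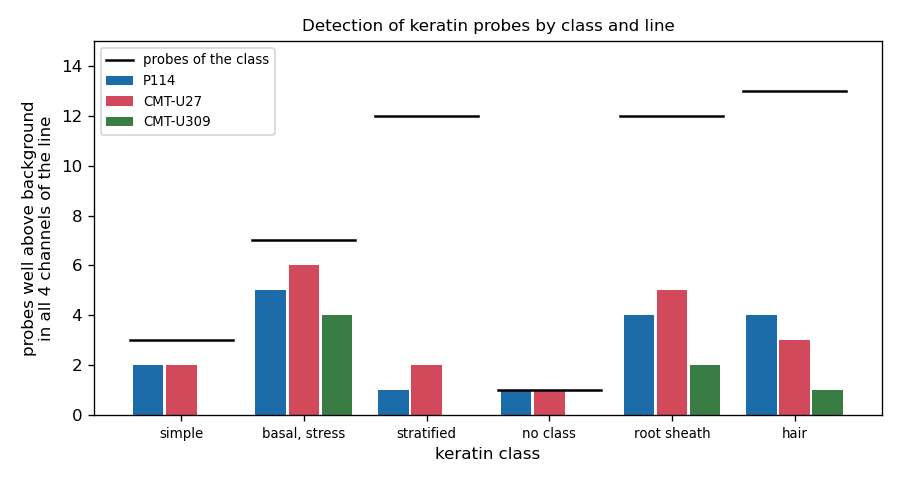
Number of keratin probes (y axis) that were well above background in all 4 channels of P114 (blue), CMT-U27 (red) and CMT-U309 (green), by keratin class (x axis), with black lines at the number of probes of the class. Classes follow the symbols of the probes. CMT-U309 had 4 of 7 basal and stress-inducible probes and 0 of 3 simple keratin probes. The 4 were the overlapping KRT14 probes a and b and the other-strand probes of KRT14 and KRT15. The 3 were KRT19 on both strands and KRT20. The probes of keratins 7, 8 and 18, known by description only and not counted here, were well above background in all 4 channels of CMT-U309.

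The probes on which the line differences turn are shown with their sequences as the array carries them, 5′ to 3′, with positions in the canFam2 build. KRT19 is shown because it had the largest range between lines and was read on both strands, from the same 60 bases of chr9:24564148-24564207. Capitals mark the first 12 bases of the gene-strand probe and the same 12 positions in the probe of the other strand.
KRT19 gene strand: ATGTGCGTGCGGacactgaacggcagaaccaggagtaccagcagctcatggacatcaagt
KRT19 other strand: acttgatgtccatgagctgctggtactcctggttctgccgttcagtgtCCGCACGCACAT

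KRT13 (chr9:24583420-24583479) and KRT16 (chr9:24489008-24489158) are type I keratins whose probes read a related stretch of their genes. Capitals mark the 15 mismatches in the best ungapped overlap of 43 bases, which gives 65.1% identity.
KRT13: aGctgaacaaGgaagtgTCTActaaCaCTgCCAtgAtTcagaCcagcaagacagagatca
KRT16: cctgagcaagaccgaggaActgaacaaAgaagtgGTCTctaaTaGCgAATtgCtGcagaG

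KRT42 (chr9:24471984-24472303, a probe across an exon junction by its span) differed from its closest keratin probe over the full length, that of the hair keratin KRT35 (chr9:24609907-24611304), at 22 of 60 bases, in capitals.
KRT42: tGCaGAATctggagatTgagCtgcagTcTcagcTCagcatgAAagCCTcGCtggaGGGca
KRT35: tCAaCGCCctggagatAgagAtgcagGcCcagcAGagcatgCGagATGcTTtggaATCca

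The symbol KRT71 was given to 6 probes at 3 loci of chromosome 27, which is why they are shown apart. Locus 1 is chr27:5544320-5544379, locus 2 holds 4 probes between 5576000 and 5577123, and locus 3 is chr27:5597901-5597960. The probes of loci 1 and 3 overlapped ungapped over 58 bases with 21 mismatches, in capitals.
KRT71 locus 1: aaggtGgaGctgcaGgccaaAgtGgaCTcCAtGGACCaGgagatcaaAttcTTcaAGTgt
KRT71 locus 3: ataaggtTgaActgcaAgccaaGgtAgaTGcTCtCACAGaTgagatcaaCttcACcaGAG
At locus 2, probes b (chr27:5576713-5576772) and c (chr27:5576721-5576777) shared 52 bases, in capitals.
KRT71 locus 2, probe b: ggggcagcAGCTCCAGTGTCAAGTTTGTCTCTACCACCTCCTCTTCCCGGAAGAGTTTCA
KRT71 locus 2, probe c: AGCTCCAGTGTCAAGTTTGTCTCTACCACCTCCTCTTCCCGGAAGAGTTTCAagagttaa

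Only the locus 1 probe carried a transcript that RefSeq (assembly UU_Cfam_GSD_1.0) lists as KRT71. In the RefSeq gene order KRT5 and KRT6A, which the array names on no probe, follow KRT71 directly on the side towards KRT75 and KRT82. Loci 2 and 3 lay on that side of locus 1, before KRT82, and which gene each belongs to was not settled here. Whether KRT5 or KRT6A was read under the symbol KRT71 is thus not known, and their missing symbols do not show that the array lacks them. The file's symbol is therefore kept with the locus number.

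The simple (luminal) keratin KRT19 differed most among the lines. Its gene-strand probe read 16.12 in CMT-U27 monoculture and 16.60 in co-culture. In P114 it read 10.28 and 9.70, and in CMT-U309 4.88 and 5.19, where 3 of 4 channels were well above background. The ranges of the lines did not overlap. KRT19 was 82.6-fold higher in CMT-U27 than in P114 (log2 difference 6.37, SE 0.22, adjusted p = 1.2e-09). P114 in turn was 31.1-fold higher than CMT-U309 (log2 difference 4.96, SE 0.22, adjusted p = 1.9e-08), and CMT-U27 over CMT-U309 came to 2570-fold (adjusted p = 1.8e-11). KRT20, a simple keratin of intestine and urothelium, was well above background in 2 of 4 channels of CMT-U27 and in 0 of 4 of either other line. In CMT-U27 it read 6.68 in monoculture and 6.30 in co-culture on array 2, but 0.89 and 2.34 on array 1. The dye-swapped arrays thus did not repeat its signal.

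The probe of the other KRT19 strand gave the same order with smaller distances. It read 10.37 and 11.15 in CMT-U27, 7.21 and 7.24 in P114, and 7.12 and 6.55 in CMT-U309. CMT-U27 was 11.6-fold above P114 (SE of the log2 difference 0.262, adjusted p = 7.77e-07), and P114 and CMT-U309 differed by 0.39 (SE 0.262, adjusted p = 0.302).

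Keratins 4, 6, 7, 8, 18, 24 and 25 and 1 other stood on the array only by their description, outside the symbol rule, and their probes were looked up after values had been seen. Those of keratins 6, 7, 8 and 18 were well above background in all 12 channels. The keratin 8 probe, the type II partner of keratin 18, had line means of 17.50 in CMT-U27, 15.20 in P114 and 11.08 in CMT-U309. In the same order the keratin 18 probe had 16.74, 12.76 and 7.06, and the keratin 7 probe 13.74, 10.58 and 6.59. Keratins 7, 8 and 18 were called in every pair of lines, with CMT-U27 highest and CMT-U309 lowest, as for KRT19. The keratin 6 probe had 8.23, 8.49 and 8.45 with no pair called, and the probes of keratins 4, 24 and 25 and the other one reached all 4 channels in no line and were called in no pair.

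**Figure D2:**
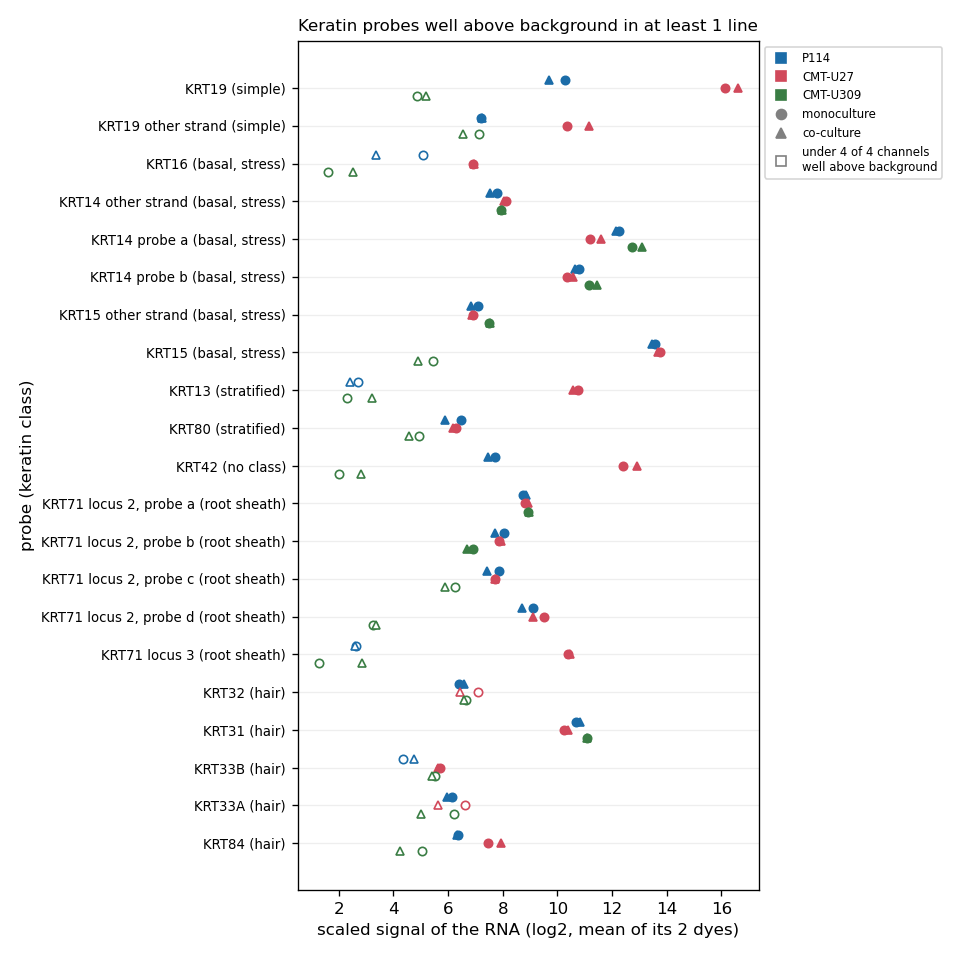
Scaled signal (x axis, log2) of the 21 keratin probes well above background in at least 1 line, in monoculture (circles) and co-culture (triangles) RNA of P114 (blue), CMT-U27 (red) and CMT-U309 (green), with open symbols where under 4 of 4 channels of the line were well above background. KRT19, KRT13, KRT42 and KRT71 locus 3 were highest in CMT-U27, whereas KRT14 and KRT31 lay close together in the 3 lines.

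Among basal keratins KRT14 followed another order, so that CMT-U309 was not uniformly low. KRT14, the type I chain of basal and myoepithelial cells, had 2 gene-strand probes that share 51 bases (probe a, chr9:24514603-24514662, and probe b, chr9:24514612-24514671). Probe a read 12.24 and 12.13 in monoculture and co-culture of P114, 11.18 and 11.58 in CMT-U27, and 12.73 and 13.10 in CMT-U309. Thus CMT-U309 was highest, and it exceeded CMT-U27 2.90-fold (log2 difference 1.53, SE 0.157, adjusted p = 9.45e-06), the only KRT14 difference that was called. Probe b gave 1.77-fold for this pair (adjusted p = 0.00103), below the fold threshold.

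KRT15, a type I keratin of basal cells and of the hair follicle bulge, was high in P114 and CMT-U27 and far lower in CMT-U309. Its gene-strand probe (chr9:24573674-24573733) read 13.56 and 13.47 in P114, 13.76 and 13.69 in CMT-U27, and 5.45 and 4.90 in CMT-U309. P114 and CMT-U27 differed by 0.21 (SE 0.158, adjusted p = 0.312). CMT-U309 lay 323-fold below P114 (SE of the log2 difference 0.158, adjusted p = 8.75e-11) and 375-fold below CMT-U27 (adjusted p = 1.29e-11), with 3 of its 4 channels well above background. KRT14 and KRT15, both basal type I keratins, therefore separated in CMT-U309.

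KRT16, a stress-inducible keratin of activated and wounded epithelium, read 6.92 and 6.95 in CMT-U27, 5.07 and 3.36 in P114 and 1.59 and 2.51 in CMT-U309. It was well above background in 4, 1 and 0 of 4 channels. CMT-U27 was 6.57-fold above P114 (log2 difference 2.72, SE 0.515, adjusted p = 0.00129) and at least 10.3-fold above CMT-U309. With normexp, loess and Aquantile the first difference was 0.58 and the call was lost, as was that of CMT-U309 over CMT-U27 (-0.84). A fold written as "at least" takes the dim line at the higher of its own signal and the lowest signal that was well above background in each channel, after loess and Aquantile normalization. An adjusted p beside such a fold belongs to the limma difference of the scaled signals, in which the dim line keeps its own signal, and not to the bound. The bound does not hold under other processing, such as normexp. KRT17, another stress-inducible keratin, had line means of 3.78, 4.07 and 4.37 in P114, CMT-U27 and CMT-U309, with no pair called.

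Among keratins of differentiated stratified epithelium, KRT13, which marks the upper layers of mucosal epithelium, was measured in CMT-U27 alone. It read 10.75 and 10.57 there, against 2.71 and 2.41 in P114 and 2.32 and 3.22 in CMT-U309, which were in no channel well above background. CMT-U27 was at least 57.7-fold above P114 (adjusted p = 4.84e-09) and at least 115-fold above CMT-U309 (adjusted p = 5.36e-09). With normexp, loess and Aquantile the log2 difference of CMT-U27 over P114 was 3.31, which is below that bound. KRT80, a type II keratin found at cell junctions, read 6.46 and 5.89 in P114, 6.29 and 6.19 in CMT-U27 and 4.95 and 4.58 in CMT-U309. It was 2.66-fold lower in CMT-U309 than in P114 (adjusted p = 0.00162) and 2.77-fold lower than in CMT-U27 (adjusted p = 0.000613), and both calls were lost with normexp, loess and Aquantile (log2 differences -0.31 and -0.33). The remaining 10 probes of this class reached all 4 channels in no line.

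KRT42, a type I keratin that is a pseudogene in human, was strong in CMT-U27. It read 12.40 and 12.92 in CMT-U27 and 7.72 and 7.46 in P114, with a line mean of 2.41 in CMT-U309, where no channel was well above background. CMT-U27 was 33.5-fold above P114 (log2 difference 5.07, SE 0.248, adjusted p = 2.13e-08). P114 was at least 16.8-fold and CMT-U27 at least 489-fold above CMT-U309. KRT42, KRT19 and keratins 7, 8 and 18 thus shared the order CMT-U27, P114, CMT-U309. The order was not theirs alone. KRT16 (line means 6.93, 4.22 and 2.05) and the hair keratin KRT84 (7.70, 6.35 and 4.65) had it too. Both were called in every pair, but lost calls with normexp, loess and Aquantile.

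The KRT71 probes did not behave as 1 gene. The locus 1 probe, the RefSeq KRT71 (a type II keratin of the inner root sheath), was well above background in 1 channel of P114, 0 of CMT-U27 and 2 of CMT-U309. Locus 3 was measured in CMT-U27 alone, with 10.40 and 10.46 there against 2.65 and 2.61 in P114 and 1.26 and 2.85 in CMT-U309. CMT-U27 was at least 49.1-fold above P114 (adjusted p = 2.75e-08) and at least 106-fold above CMT-U309 (adjusted p = 1.37e-08). KRT13 and this probe were thus both measured in CMT-U27 alone.

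At locus 2, CMT-U27 minus P114 gave log2 differences between 0.00 and 0.40 at the 4 probes, none of them called, whereas the level in CMT-U309 depended on the probe. The 3′-most probe d (chr27:5577064-5577123) read 9.10 and 8.69 in P114, 9.49 and 9.10 in CMT-U27, and 3.27 and 3.36 in CMT-U309, where 2 of 4 channels were well above background. The fitted difference was 48.0-fold below P114 (adjusted p = 5e-09). The overlapping probes b and c were 2.15-fold and 2.96-fold lower in CMT-U309 than in P114 (adjusted p = 0.00127 and 0.000161), calls that normexp, loess and Aquantile ended (log2 differences -0.54 and -0.62). Probe a (chr27:5576000-5576519), given the same transcript as probe d, was not called: it read 8.76 and 8.84 in P114 and 8.94 and 8.95 in CMT-U309 (log2 difference 0.15, SE 0.155, adjusted p = 0.522).

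The keratins KRT14 and KRT15 also had a probe on the other strand. At KRT15 it (chr9:24572016-24572075) read 7.10 and 6.83 in P114, 6.93 and 6.89 in CMT-U27 and 7.52 and 7.55 in CMT-U309, with no pair called, where the gene-strand probe differed 323-fold and 375-fold. At KRT14 it (chr9:24513451-24513601) had line means of 7.66, 8.08 and 7.95, with no pair called. These 3 probes, the KRT19 one included, were the keratin probes annotated against the direction of the other 45, and each carried the name of an expressed sequence tag. The labelling makes cRNA complementary to mRNA, and what these probes hybridised with was not tested. There were 4 keratin probes (KRT14 a and b, KRT15 and KRT71 locus 2 probe d) that held AATAAA, the polyadenylation signal, on the probe strand. Of all array probes 8.67% held it.

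**Figure D3:**
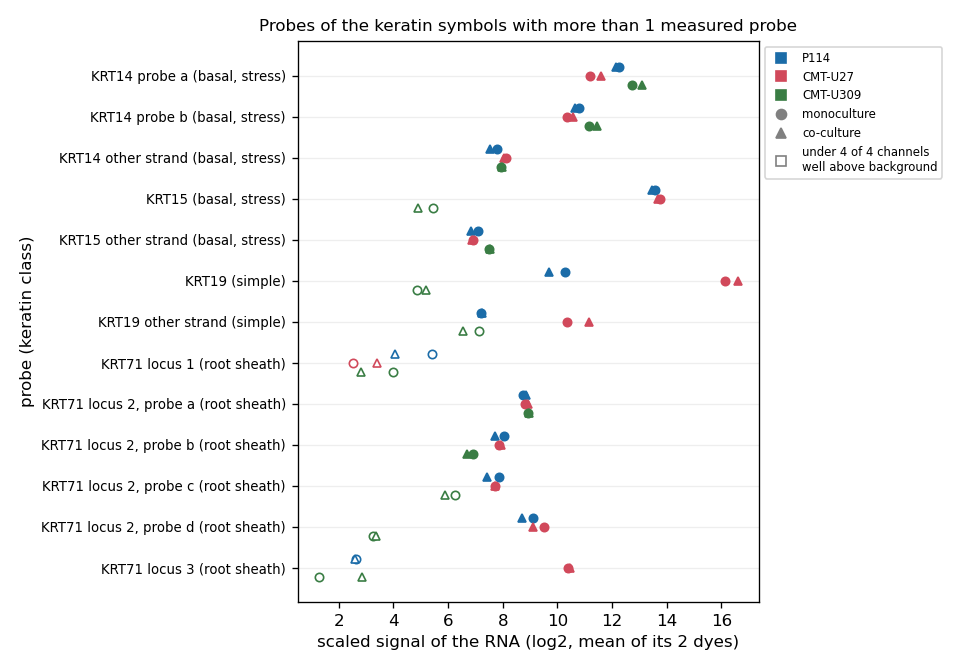
Scaled signal (x axis, log2) of every probe labelled KRT14, KRT15, KRT19 or KRT71 in monoculture (circles) and co-culture (triangles) RNA of P114 (blue), CMT-U27 (red) and CMT-U309 (green), with open symbols where under 4 of 4 channels of the line were well above background. CMT-U309 fell at the gene-strand KRT15 probe and at KRT71 locus 2 probe d, and stayed with the other lines at the other-strand KRT15 probe and at locus 2 probe a.

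Few hair keratins were measured, with all 4 channels well above background for 4 of 13 probes with P114, 3 with CMT-U27 and 1 with CMT-U309. KRT31, a type I keratin of the hair cortex (chr9:24687964-24688023), was that 1 probe, measured in all 12 channels. It read 10.69 and 10.82 in P114, 10.23 and 10.40 in CMT-U27, and 11.10 and 11.10 in CMT-U309. CMT-U309 exceeded CMT-U27 by 1.73-fold (adjusted p = 0.000643), below the fold threshold. KRT32, a hair cuticle keratin, had line means of 6.49, 6.76 and 6.61 with no pair called, and KRT33A, a cortex keratin, had 6.04, 6.13 and 5.61 with no pair called.

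KRT33B, another cortex keratin, had 4.56, 5.68 and 5.47 and was called 2.17-fold higher in CMT-U27 than in P114 (adjusted p = 0.00888), where 1 of 4 channels of P114 was well above background. With normexp, loess and Aquantile the log2 difference was 0.22 and was not called. Its probe matched that of KRT19 at 29 of 36 overlapping bases, the closest pair of keratin probes from different genes. KRT84, a type II hair keratin (chr27:5692586-5694694), read 7.45 and 7.95 in CMT-U27, 6.37 and 6.34 in P114 and 5.06 and 4.24 in CMT-U309. It was the hair keratin with the widest range, and CMT-U27 was 8.28-fold above CMT-U309 (log2 difference 3.05, SE 0.301, adjusted p = 7.03e-06). For CMT-U309 over CMT-U27 normexp, loess and Aquantile gave -0.91, which was not called.

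Counted over the family, CMT-U27 over P114 gave 9 of 46 probes higher and 3 lower, where 12.1% of all probes were called higher and 11.2% lower. CMT-U309 over P114 gave 1 higher and 10 lower, against 6.67% and 7.34% of all probes. CMT-U309 over CMT-U27 gave 3 higher and 15 lower, against 12.8% and 14.9%. As shares of the 46 probes, the lower calls came to 21.7% and 32.6% in the pairs with CMT-U309, and the higher calls in CMT-U27 over P114 to 19.6%. The median log2 differences of the keratin probes were -0.02, -0.43 and -0.05, and those of all probes -0.18, -0.16 and -0.05. Of the calls 8 of 12, 8 of 11 and 13 of 18 were at probes well above background in all 4 channels of a line of the pair. Over the 3 pairs 22 probes were called at least once, 14 of the 21 named for their level and 8 of the 27 dim ones. The dim ones, which lie outside the naming rule and were picked by their calls, were KRT1, KRT20, KRT34, KRT39, KRT73, KRT74, KRT79 and KRT71 locus 1. With normexp background correction the calls were 5, 4 and 9.

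By class, simple keratins gave 2 of 3 probes higher in CMT-U27 over P114 and 3 of 3 lower in CMT-U309 over CMT-U27. These 3 probes were KRT19 on both strands of the same bases and KRT20, whose signal in CMT-U27 came from 1 array. Basal and stress-inducible keratins gave 1 higher and 0 lower of 7, and 1 higher and 2 lower of 7, for the same pairs. Probes classed by symbol as root sheath keratins gave 0 higher and 5 lower of 12 in CMT-U309 over CMT-U27. Of those 5 probes 4 were labelled KRT71 at loci 2 and 3, whose genes were not settled. The locus 1 probe, the RefSeq KRT71, was not called in this pair (adjusted p = 0.557 by limma). Hair keratins gave 1 higher and 2 lower of 12 in the same pair.

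The lines were checked against markers of cell types. All 3 EPCAM probes (an epithelial adhesion protein) were called in every pair, and the one with the widest range had 15.75 in CMT-U27, 9.50 in P114 and 7.01 in CMT-U309. Epithelial markers were higher in CMT-U27 than in P114 at 10 of 11 probes, and lower in CMT-U309 than in CMT-U27 at 10 of 11. For CMT-U309 over P114 they gave 1 higher and 5 lower of 11, the higher one ESRP1 (an epithelial splicing factor) at a log2 difference of 3.02, while CDH1 (E-cadherin) at -0.19 was not called (adjusted p = 0.649). Mesenchymal markers were lower in CMT-U27 than in P114 at 22 of 22 probes and higher in CMT-U309 than in CMT-U27 at 22 of 22. VIM, the intermediate filament protein of mesenchymal cells, had 10.52 in CMT-U27, 17.19 in P114 and 16.56 in CMT-U309. P114, labelled a cancer, thus held measured KRT14, KRT15, KRT19 and keratins 8 and 18 beside a VIM level that was 0.62 (log2) above that of the spindle cell line.

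The summed scaled signal of the 11 epithelial marker probes was 99500 to 103000 in CMT-U27, 1520 to 1910 in P114 and 511 to 598 in CMT-U309. That of the 22 mesenchymal marker probes was 26100 to 28000, 752000 to 829000 and 1190000 to 1200000 in the same order. Myoepithelial markers had overlapping sums of 989 to 1220, 658 to 1500 and 811 to 1510 over 7 probes, but single genes differed in opposite directions. CNN1 (calponin) was at a log2 difference of -2.96 for CMT-U27 over P114 and MYLK (myosin light chain kinase) at 4.45, and for CMT-U309 over CMT-U27 2 probes of the list were called higher and 1 lower. Myeloid markers, which MDSCs would bring, summed to 9260 to 16500 in CMT-U27, 694 to 788 in P114 and 1250 to 1340 in CMT-U309 over 18 probes. In CMT-U27 this came from S100A8 (13.39) and S100A9, which epithelial cells also express, while PTPRC, ITGAM, CSF1R and LYZ were in no channel of CMT-U27 well above background, CSF3R, TYROBP and MPO were in 2 of 4 and FCER1G in 1 of 4. In CMT-U309 the sum came largely from MPO (9.94, against 3.43 in P114 and 4.25 in CMT-U27). PTPRC (4.50), TYROBP (4.79) and a CSF3R probe (4.96) were well above background in 3 of 4 channels of CMT-U309, and ITGAM and LYZ in none. Of these, PTPRC and TYROBP were called higher in CMT-U309 than in CMT-U27. The part of the myeloid markers in the keratin differences was not tested.

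Genes that work with keratins were counted in the same way, against the shares of all probes given above. Among desmosome and linker proteins that anchor keratin filaments, 9 of 21 probes were higher and 3 lower in CMT-U27 over P114, 4 and 2 in CMT-U309 over P114, and 6 and 12 in CMT-U309 over CMT-U27. Their median log2 differences were 0.62, -0.47 and -1.27. The desmosomal plakophilin PKP3 had 8.73, 11.42 and 7.80 in P114, CMT-U27 and CMT-U309, and periplakin (PPL) had 10.40, 12.22 and 8.74. Plectin (PLEC), which links many kinds of intermediate filament, ran the other way with 14.56, 12.24 and 14.32. Of 13 probes of epithelial transcription factors 8 were higher and 1 lower in CMT-U27 over P114, 3 and 3 in CMT-U309 over P114, and 1 and 7 in CMT-U309 over CMT-U27 (medians 1.09, 0.13 and -1.15). TFAP2C, an AP-2 factor active at keratin genes, had 10.13, 10.83 and 8.39, KLF5 8.36, 9.38 and 9.85, and GRHL1 7.60, 8.88 and 7.73. Other intermediate filament genes gave 1 higher and 4 lower of 18 in CMT-U27 over P114, 2 and 0 in CMT-U309 over P114, and 4 and 1 in CMT-U309 over CMT-U27 (medians -0.47, 0.08 and 0.66). LMNA, a nuclear lamin, had 13.80, 12.58 and 13.32 at its probe of widest range, and LMNB2 6.56, 7.12 and 7.70.

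Well-measured keratins differed little between co-culture and monoculture. Over the 43 cases of a keratin probe in a line where all 4 channels were well above background, the mean log2 ratio of co-culture over monoculture lay between -0.58 and 0.78 with a median of 0.00, and none reached a change of 2-fold. A keratin that fell to background in either RNA of a line was left out of these cases, which limits the changes they can show. At the named probes, left-out cases past 2-fold were KRT16 in P114 (mean -1.71, 1 of 4 channels well above background), KRT33A in CMT-U309 (-1.225, 3 of 4) and KRT71 locus 3 in CMT-U309 (1.58, 0 of 4). The dye-swapped arrays gave the same sign in 22 of 43. In P114 they did so at 7 of 17 probes, 6 of them lower and 1 higher. In CMT-U27 they did so at 13 of 19, 9 higher and 4 lower, and in CMT-U309 at 2 of 7, both higher. Across all probes the turned ratios of the 2 arrays of a line had a correlation of 0.27 in CMT-U27, -0.40 in P114 and -0.07 in CMT-U309.

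The largest mean among these cases was at KRT19 in CMT-U27. The gene-strand probe had 0.64 and 0.33 on the arrays of CMT-U27, and the other-strand probe 0.32 and 1.25. In P114 the gene-strand probe had -0.57 and -0.59, and the other-strand probe 0.25 and -0.21. KRT42 ran with the gene-strand probe of KRT19, at 0.83 and 0.21 in CMT-U27 and -0.27 and -0.25 in P114.

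KRT14 probe a had 0.48 and 0.33 on the arrays of CMT-U27, 0.64 and 0.11 on those of CMT-U309, and 0.16 and -0.37 on those of P114. Probe b had 0.20 and 0.23, 0.42 and 0.23, and 0.18 and -0.50. Both were thus slightly higher with MDSCs on both arrays of CMT-U27 and of CMT-U309. The other-strand KRT14 probe had -0.10 and -0.04, 0.26 and -0.21, and -0.06 and -0.47 in the same order of lines. KRT15 had -0.04 and -0.10 in CMT-U27 and 0.08 and -0.27 in P114 at its gene-strand probe, and its other-strand probe had -0.04 and -0.03, 0.30 and -0.22 (CMT-U309), and 0.16 and -0.69 (P114). KRT16 had 0.04 and 0.04 in CMT-U27.

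KRT13 had 0.00 and -0.36 in CMT-U27. KRT80 had -0.78 and -0.36 in P114 and -0.20 and 0.02 in CMT-U27. KRT71 locus 3 had 0.33 and -0.21 in CMT-U27. At locus 2 probe a lay between -0.10 and 0.31 on all 6 arrays and probe b between -0.50 and 0.10, while probe c had 0.10 and -0.95 in P114 and 0.12 and -0.08 in CMT-U27, and probe d had -0.63 and -0.19 in P114 and -0.73 and -0.07 in CMT-U27. Of the hair keratins, KRT31 had 0.41 and -0.14 in P114, 0.19 and 0.14 in CMT-U27 and a mean of 0.0036 in CMT-U309. KRT32 had 0.34 and 0.09 in P114, KRT33A 0.32 and -0.68 in P114, and KRT33B -0.35 and 0.17 in CMT-U27. KRT84 had -0.17 and 0.12 in P114 and 0.81 and 0.19 in CMT-U27.

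**Figure D4:**
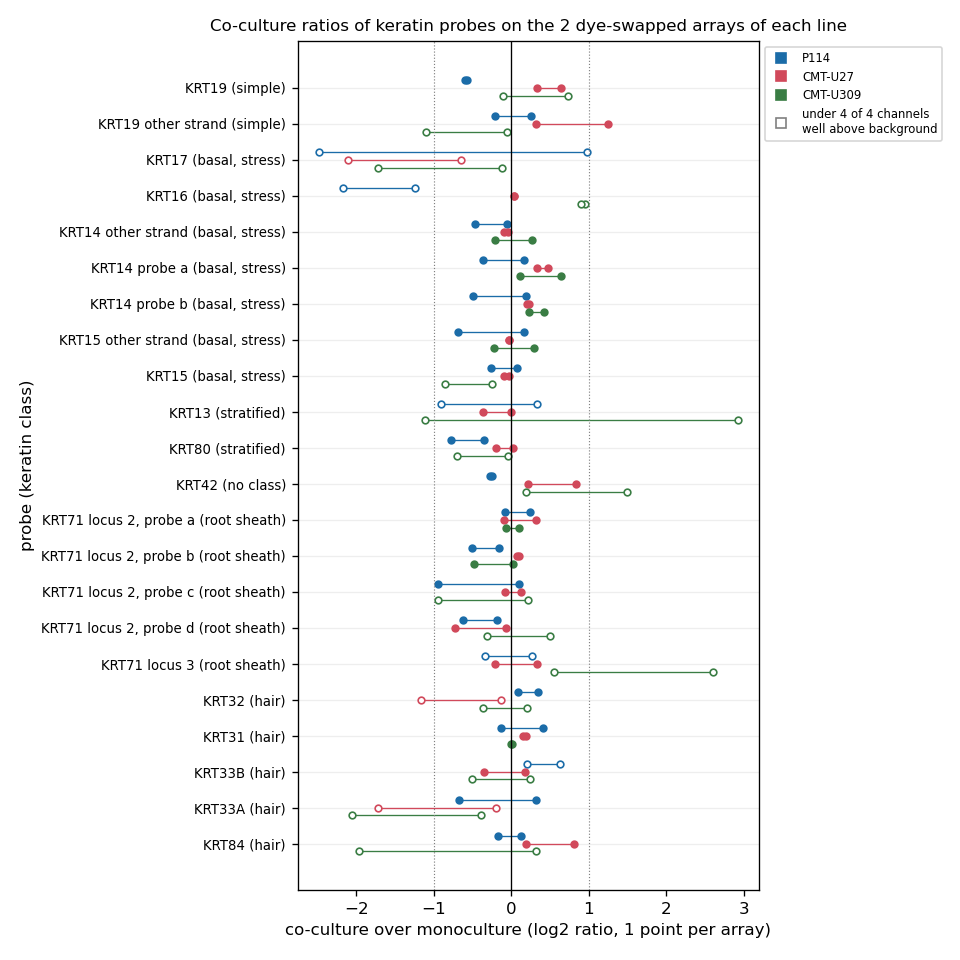
Log2 ratio of co-culture over monoculture (x axis) on the 2 dye-swapped arrays of P114 (blue), CMT-U27 (red) and CMT-U309 (green), joined by a line, for the 21 keratin probes well above background in a line and for KRT17, with open symbols where under 4 of 4 channels of the line were well above background and dotted lines at a change of 2-fold. The means of the filled pairs lay between -0.58 and 0.78, although single arrays went further, such as 1.25 at the other-strand KRT19 probe in CMT-U27, and wide pairs such as those of KRT13 and KRT84 in CMT-U309 had open symbols.

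Tested over the 3 lines, 1 of 46 keratin probes, KRT17, was lower in co-culture by the criteria of the study (a fold over 2 at an unadjusted p under 0.05). Over all probes 1.03% were called higher and 0.19% lower by these criteria. KRT17 had log2 ratios of 0.98 and -2.49 on the arrays of P114, -0.65 and -2.11 in CMT-U27 and -0.12 and -1.73 in CMT-U309, a mean of -1.02 (SE 0.293, unadjusted p = 0.00507, adjusted p = 0.473 by limma). In every line array 2, where co-culture RNA carried the dye Cy3, gave a far lower ratio than array 1. The KRT17 signal passed the background flag in 5 of 6 monoculture channels but in 1 of 6 co-culture channels. Without array 2 of any line, without CMT-U27, or with normexp and loess, the call was lost, with means of -0.44, -0.78 and -0.75 without array 2 of P114, CMT-U27 and CMT-U309, -0.84 without CMT-U27 and -0.10 with normexp and loess. With the t-test named in the methods in place of limma KRT17 was called too. The paper also reports KRT17 as downregulated with MDSCs and states that real-time RT-PCR showed the trend of its arrays. That measurement was not examined here. The other 45 keratin probes had mean ratios between -0.79 and 0.89. After Benjamini-Hochberg adjustment by limma 0 of the 42728 probes passed, with 4295 at an unadjusted p under 0.05, and the median log2 ratio was 0.01 over the keratin probes and 0.02 over all probes.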

How the data were processed

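The authors deposited the scanner output of 6 two-colour canine arrays (Feature Extraction 10.10.1.1 per the file headers, 10.7.3.1 per the labels), with background-subtracted, dye-normalized processed signal intensity for each spot, and a table of log10 ratios turned to co-culture over monoculture, which matched the scanner ratios within 5e-06. Positions are those of the files (canFam2). Signals were taken as log2, outlier spots were dropped, the 12 channels were scaled to 1 median, spots of a probe were averaged, and only probes exceeding an intensity of 10 in some channel were kept. Lines were compared with limma 3.58.1 (R 4.3.3; trend; treatment as a covariate) on 6 RNAs, with 2 residual degrees of freedom, and co-culture by the ratio of each line, the mean of its dye-swap, against 0. Precision is limited by the number of arrays.

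The replicate number marks the dye orientation. Deviations of same-numbered arrays correlated between lines with r = 0.31 to 0.57 for the ratios, and with r = -0.20 to 0.33 for the array means, where 1 of 3 pairs of lines was over 0.1. Every keratin probe well above background in all 4 channels of a line is named with its level and ratios, and so is any probe past the criteria of the study for co-culture. Other keratin probes are given by counts. Of other lists up to 3 genes are named, those of widest range in all 12 channels. CNN1, MYLK, ESRP1, MPO and the other single genes of the marker lists were chosen after their values were seen. The members and lists were chosen with earlier results of these data known. RefSeq names matched 9 of 48 keratin probes by transcript, all with the same symbol.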

Additional observations from a re-analysis of the deposited data

Results flagged for a closer look

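At 3 keratin probes both arrays of P114 gave a lower level in co-culture and both arrays of CMT-U27 a higher one, with all 4 channels of both lines well above background. The difference between the lines was not tested, and the share of all array probes with this pattern was not counted. The mean log2 ratio was -0.58 in P114 and 0.49 in CMT-U27 at the gene-strand probe of KRT19, -0.26 and 0.52 at KRT42, and -0.33 and 0.090 at KRT71 locus 2 probe b. The overlapping probe c did not repeat the pattern, with 0.10 and -0.95 in P114 and 0.12 and -0.08 in CMT-U27. Nor did the other-strand KRT19 probe, with 0.25 and -0.21 in P114.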

How the results depend on the processing

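The keratin probes called were 12 (CMT-U27 over P114), 11 (CMT-U309 over P114) and 18 (CMT-U309 over CMT-U27). With normexp, loess and Aquantile they were 5, 4 and 9. Leaving out 1 array at a time gave 7 to 12, 8 to 12 and 14 to 20, with 7 for CMT-U27 over P114 without array 2 of P114. The 6 array means with the replicate block gave 11, 11 and 17, and the other alternatives stayed within 1.5 times. The 1 keratin probe called for co-culture became 0 with normexp and loess, with probes well above background in all 4 channels of a line, or with the adjusted p, and 4 without P114. It was 0 to 5 without single arrays and stayed 1 with the replicate block. Of 504 line differences recomputed for named probes 413 kept their call or moved by less than 1 SE and 0 reversed. KRT16, KRT33B, KRT80, KRT84 and KRT71 locus 2 probes b and c lost calls with normexp, loess and Aquantile, and KRT14 probe b gained CMT-U309 over CMT-U27 there (log2 difference 1.03). Kept calls could also shrink there. The log2 difference of CMT-U27 over P114 went from 8.10 to 3.31 at KRT13 and from 5.07 to 3.90 at KRT42. For KRT19 it went from 6.37 to 5.82 at the gene-strand probe and from 3.54 to 2.20 at the other-strand probe. The cause was not tested. Ratios of dim probes are limited by signal over background.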
